A study of Homo sapiens with 3 samples.

Results

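CACNA1C, CACNA1D, CACNA1G, HCN4, KCNH2, KCNQ1, KCNJ3 and KCNJ5 encode pore-forming subunits of channels that shape the heart beat, and they were followed by name in the table of unique molecular identifier (UMI) counts, where they are 8 of 32738 genes. The names were listed with earlier results of these data known, and the rule itself uses no level or change. Chambered cardiac organoids (CCOs) were differentiated from H7, an established human embryonic stem cell line, and were aggregated on day 7 in cardio-sphere growth medium, which contains WNT3A and EDN1 among other factors. From day 14 they were kept in RPMI/B27 in a spinner flask. Organoids were dissociated at D8, D14 and D21, and 1 droplet library was made per day, with all libraries from the same line and no treated or control arm. The number of organoids pooled per library was not stated. Day and library cannot be told apart, nor can the change of medium and vessel at day 14 from the step to D21, and each interval given covers counting error only.

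The inward calcium current of the myocardium passes through the L-type pores CACNA1C and CACNA1D and the T-type pore CACNA1G, whereas HCN4 carries the pacemaker current of nodal cells. KCNH2 and KCNQ1 are the pores of the rapid and slow delayed rectifier potassium currents that end the action potential. KCNJ3 and KCNJ5 assemble into the channel that acetylcholine opens in atrial and nodal cells, through the muscarinic receptor CHRM2 and the G protein subunits it releases. In the adult heart CACNA1C, KCNH2 and KCNQ1 are working channels of all chambers, and HCN4 is kept mainly to the conduction system.

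Filters on gene number and mitochondrial share left 2657 D8 cells, 3585 D14 cells and 1946 D21 cells, with a median of 12282 to 15316 UMIs per cell. The D14 and D21 numbers are those the study gives, and the D8 number is not. Cells were clustered with the channel genes removed from the variable genes, so that the levels of the 8 genes had no direct part in the clusters. Cardiomyocyte-like (CM-like) cells made up cluster 5 (D8, 486 cells), most of them cluster 0 on the next day (D14, 1107 cells in all) and clusters 6 and 17 on the last (D21, 541 cells in all). All 12 of the CM markers were at least 2-fold above the other cells of the day in clusters 5, 0 and 6, and 9 of them were in cluster 17. A level is given as CPM, the counts per 1000000 UMIs summed over a group of cells, with an exact Poisson interval of 95%. Each UMI stands for 1 captured 3′ end, so a longer transcript does not by itself give more counts. Whether different genes are captured equally well was not tested, and levels of different genes are compared as captured counts only. The same barcode sequence occurred in 2 libraries 136 times, 33 of them among kept cells. Leaving these out left 483, 1099 and 536 CM-like cells, and the counts of the 8 genes called from D8 to D14, from D14 to D21 and against the other cells of each day stayed as given below.

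CACNA1C, the L-type pore of working myocardium, was 7.87 CPM (6.03 to 10.1) in CM-like cells at D8, 20.7 (18.4 to 23.1) at D14 and 59.4 (54.0 to 65.3) at D21. Its level was higher on each later day with no overlap of the intervals, by 2.63-fold (1.99 to 3.51) from D8 to D14 and by 2.88-fold (2.48 to 3.34) from D14 to D21. CACNA1D, the L-type pore that opens at more negative voltages and is known from sinoatrial cells, went another way. It was 3.81 CPM (2.57 to 5.43) at D8, 26.1 (23.6 to 28.9) at D14 and 10.96 (8.69 to 13.6) at D21, so that its peak was at D14. The D14 level was 6.86-fold (4.73 to 10.3) that of D8, and the level was 0.420-fold (0.326 to 0.535) as high at D21 as at D14. At D14 CACNA1D stood above CACNA1C, and at D21 CACNA1C was the more abundant L-type pore, with 434 UMIs against 80.

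CACNA1G, the T-type pore of the embryonic heart and the conduction system, was 19.3 CPM (16.3 to 22.6) at D8, 56.2 (52.4 to 60.2) at D14 and 82.6 (76.1 to 89.5) at D21. It was second only to KCNH2 among the 8 genes on every day. The later of the 2 steps was the smaller for CACNA1G, 1.47-fold (1.32 to 1.64) against 2.91-fold (2.45 to 3.49). CACNA1H, the other T-type pore of cardiac cells, fell between the same libraries from 16.5 to 2.05 CPM.

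HCN4, the pacemaker channel, was 6.60 CPM (4.93 to 8.65) at D8, 37.1 (34.0 to 40.3) at D14 and 39.2 (34.8 to 44.0) at D21. The difference lay between D8 and D14, 5.62-fold (4.23 to 7.62), and the D21 to D14 ratio was 1.06 with an interval of 0.912 to 1.22 that holds 1. CM-like cells of D21 also carried the ventricular genes MYL2, at 548 CPM, and IRX4, at 93.4 CPM. Of the 4 nodal genes listed, SHOX2, a transcription factor of the sinoatrial node, had 1, 1 and 0 UMIs in CM-like cells on the 3 days. TBX3, a repressor that keeps nodal cells from the working program, was 2.28, 10.2 and 7.26 CPM and VSNL1, a calcium sensor, 0.761, 0.886 and 6.57 CPM, while ISL1, also a gene of progenitors, was 68.1, 79.1 and 6.03 CPM. Of the 3 nodal genes with enough UMIs from D14 to D21, 1 was called higher (VSNL1, beside 6.02% of all genes) and 1 lower (ISL1, beside 21.1%). HCN4 and MYL2 were found in the same cells about as often as their separate shares give. Of 541 CM-like cells at D21, 214 had a UMI of HCN4, 360 of MYL2 and 143 of both (26.4%, exact binomial interval 22.8 to 30.4), where the product of the shares is 26.3%.

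KCNH2, the pore of the rapid delayed rectifier, was the most abundant of the 8 genes on each day, at 44.3 CPM (39.7 to 49.2) at D8, 67.4 (63.3 to 71.8) at D14 and 94.4 (87.5 to 102) at D21. Its steps were small, 1.52-fold (1.35 to 1.73) and 1.40-fold (1.27 to 1.54), and only from D8 to D21 did it differ by more than 2-fold, at 2.13-fold (1.87 to 2.43). KCNQ1, the pore of the slow delayed rectifier, was 2.79 CPM (1.75 to 4.22) at D8, 15.95 (14.0 to 18.1) at D14 and 17.8 (14.9 to 21.1) at D21. Like HCN4 it differed between D8 and D14, by 5.72-fold (3.69 to 9.30), with a D21 to D14 ratio of 1.12 (0.894 to 1.39). KCNQ1OT1, a long RNA transcribed antisense from within KCNQ1, was far more abundant, at 358, 409.8 and 113 CPM. The sources used here do not say whether strand was used in counting, and without strand reads of KCNQ1 and of KCNQ1OT1 cannot be told apart where they overlap. From D14 to D21 KCNQ1OT1 was 0.276-fold (0.256 to 0.297) as high. Named alike, KCNQ1-AS1 was 0.254, 2.25 and 5.34 CPM, and CACNA1G-AS1, beside CACNA1G, was 0.254, 1.16 and 1.92 CPM.

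KCNJ5 and KCNJ3, partners in the acetylcholine-gated channel, had different time courses. KCNJ5 was 8.25 CPM (6.36 to 10.5) at D8, 48.7 (45.2 to 52.4) at D14 and 25.1 (21.6 to 29.0) at D21, with its peak at D14 like CACNA1D. The D21 level was 0.515-fold (0.435 to 0.607) that of D14, just inside the 2-fold limit used for calls. KCNJ3 rested on 1 UMI in CM-like cells at D8, 16 UMIs at D14 and 97 UMIs at D21, which is 0.127 CPM (0.00321 to 0.707), 1.09 (0.624 to 1.77) and 13.3 (10.8 to 16.2). The step to D21 was 12.2-fold with a wide interval of 7.13 to 22.2, and the KCNJ3 UMIs of D21 lay in 77 of 541 cells, of which 61 had 1 and none had more than 4. At D14 the KCNJ5 count in CM-like cells was 714 UMIs against 16 of KCNJ3, and at D21 it was 183 against 97. The 4 atrial genes listed did not move one way from D14 to D21. NPPA, the atrial natriuretic peptide, went from 169 to 349 CPM and was called higher, and SLN, an inhibitor of the calcium pump, went from 149 to 0.685 CPM and was called lower. NR2F2, a transcription factor of atrial cells, was within 2-fold at 5.05 and 9.86 CPM, and NR2F1, at 0.341 and 1.37 CPM, had too few UMIs for a call.

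**Figure D1:**
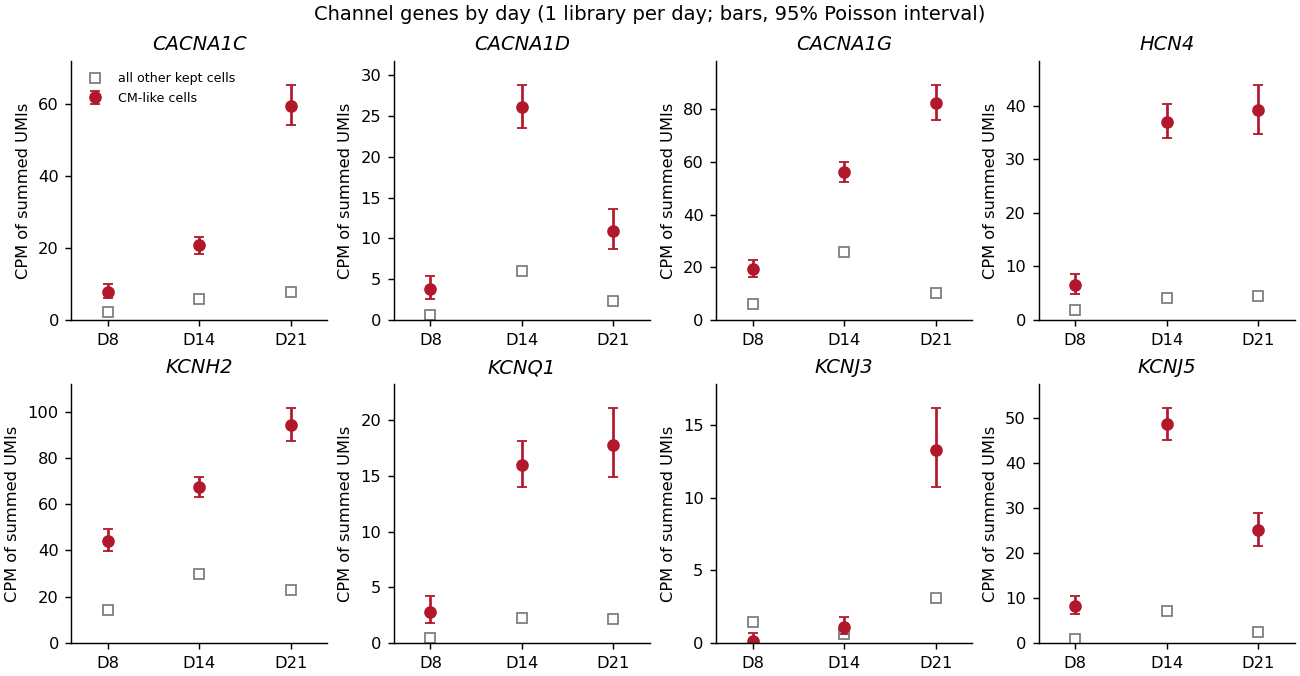
Level of each gene in CPM of summed UMIs (vertical axis, from 0) at D8, D14 and D21 (horizontal axis), with filled circles for CM-like cells, bars for the Poisson interval of 95% and open squares for all other kept cells of the day. CACNA1C rises from 7.87 to 59.4 CPM over the 3 libraries, CACNA1D and KCNJ5 peak at D14, and KCNJ3 leaves the bottom of its axis at D21.

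A gene was called higher or lower between 2 groups when the sums, with 1 UMI added to each, differed by at least 2-fold and held at least 20 UMIs together. From D8 to D14, 6 of the 7 channel genes that reached 20 UMIs were called higher in CM-like cells, where 13.8% of all 14288 genes tested were, and none was called lower (3.77%). KCNH2 was the one within 2-fold, and KCNJ3 had too few UMIs for a call. From D14 to D21, CACNA1C and KCNJ3 were called higher, 2 of 8 where 6.02% of genes were, and CACNA1D was called lower, 1 of 8 where 21.1% of genes were. The other 5 were within 2-fold. The share of genes called higher and lower was 8.31% and 16.8% with TMM scaling and 9.58% and 15.7% with median-of-ratios scaling, and under the latter CACNA1D was no longer called. A gate on CM genes instead of clusters took 2230 of 3585 D14 cells and 1843 of 1946 D21 cells as CM-like. It thus also took in many cells that the clusters place in other groups. With this gate CACNA1C had a log2 ratio of 0.61 and was not called. The ratios of CACNA1G, HCN4, KCNH2 and KCNQ1 were then below 1 (log2 -0.71, -0.73, -0.31 and -0.63). The median log2 ratio over all genes tested was 0.10 in the first step and -0.25 in the second, and the median over the channel genes tested was 2.46 and 0.32. From D8 to D21 all 8 were called higher, beside 12.7% of all genes, with KCNJ3 resting on the single UMI of D8.

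The order of the levels also changed. At D8 KCNH2 and CACNA1G stood apart, and KCNJ5, CACNA1C, HCN4 and CACNA1D followed with each interval overlapping the next. KCNQ1 overlapped CACNA1D, and KCNJ3 was below all of them. At D14 no neighbours overlapped, in the order KCNH2, CACNA1G, KCNJ5, HCN4, CACNA1D, CACNA1C, KCNQ1 and KCNJ3. At D21 CACNA1C ranked 3 instead of 6, and CACNA1D ranked 8 instead of 5. The intervals of KCNH2 and CACNA1G touched at D21, as did those of KCNQ1 with KCNJ3 and of KCNJ3 with CACNA1D.

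When each CM-like cell was thinned to 4000 UMIs, the share with a UMI of any of the 8 genes was 28.6%, 64.6% and 69.9% in order of day. Before thinning the shares were 68.3%, 94.2% and 95.9%, and cells with at least 3 of the genes made up 8.02%, 46.5% and 56.0%. Other classes also held the genes. In unnamed cells the share with any of the 8 was 11.9%, 32.4% and 59.4% after thinning, and 33.1%, 63.4% and 87.5% before. At D21 it was 19.1% in fibroblast-like and 6.54% in hepatic endoderm-like cells after thinning, and 43.6% and 28.4% before. Shares for single genes stayed low. The share for KCNH2 after thinning was 13.6% on D8, 23.0% on D14 and 28.8% on D21 (44.2%, 55.3% and 66.0% before thinning). The share for CACNA1C was 4.53%, 7.86% and 18.3% (11.5%, 21.5% and 47.5% before thinning), and that for HCN4 was 3.29%, 12.9% and 14.4% (9.05%, 35.2% and 39.6%). The cells used as a background for free RNA were the unnamed cluster 8 at D8 and D14, led by PRSS1, TTR and APOA2, and the hepatic endoderm-like cluster 10 at D21. In these, with median depths of 23591, 20518.5 and 21929.5 UMIs against 14440.5, 12219 and 12758 in CM-like cells, the thinned share was 3.502%, 4.81% and 1.63% for KCNH2, 0%, 0.481% and 0.327% for CACNA1C, and 0.389%, 0% and 1.63% for HCN4. Before thinning it was 17.5%, 21.2% and 10.5% for KCNH2, 2.33%, 2.88% and 2.61% for CACNA1C, and 1.56%, 3.37% and 3.92% for HCN4. At 4000 UMIs per cell, a count of 0 of 257 cells for CACNA1C at D8 and of 208 cells for HCN4 at D14 allows shares of cells with a UMI of up to 1.17% and 1.44%. Cluster 8 held 57 UMIs of KCNH2 at D8 and 60 at D14, where its TNNT2 and the ratio of both genes in CM-like cells give 9.26 and 7.56. That ratio covers RNA of CM-like cells only, and whether cluster 8 is a pure background for KCNH2 was not tested. KCNJ3 at D21 was in 4.44% of CM-like cells (2.86 to 6.53) and in 0.980% (0.203 to 2.84) of the hepatic endoderm-like cells, or in 14.2% and 4.90% before thinning. Its D8 and D14 shares, 0.206% and 0.181%, are 1 and 2 cells. Before thinning, the 16 UMIs of D14 lay in 10 CM-like cells, 4 with 2 UMIs and 1 with 3. Cluster 8 of D14 held 1 UMI in 208 cells. Whether the KCNJ3 UMIs of D8 and D14 in CM-like cells are background was not tested.

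Set against all other kept cells of the same day, 7 of the 8 genes were called higher in CM-like cells at D8 (7.39% of all genes were), 7 of 8 at D14 (10.5%) and 8 of 8 at D21 (12.7%). KCNJ5 had the largest ratio at D8, 9.16-fold (5.98 to 14.2), and at D21, 10.8-fold (7.92 to 14.8). At D14 HCN4 was the most enriched, at 9.04-fold (7.52 to 10.9), while CACNA1G and KCNH2 were only 2.19-fold (1.99 to 2.41) and 2.26-fold (2.07 to 2.47) above the other cells. On each day the interval of the top gene overlapped that of KCNQ1, so counting error leaves the top rank undecided. The KCNQ1 ratio was 6.38-fold (3.24 to 12.8) at D8, 7.19-fold (5.55 to 9.39) at D14 and 8.24-fold (5.92 to 11.6) at D21. At D21 the CACNA1G ratio was 8.16-fold (7.01 to 9.51), and its level in the other cells had gone from 25.7 CPM at D14 to 10.1 CPM. CACNA1C went from 3.64-fold (2.58 to 5.12) at D8 and 3.52-fold (2.94 to 4.22) at D14 to 7.58-fold (6.37 to 9.06) at D21. In the other cells 3 of the 8 genes were called lower from D14 to D21 (19.8% of all genes were) and KCNJ3 was called higher (9.04%). CACNA1D and KCNJ5 were lower there as in CM-like cells, at 0.388-fold (0.283 to 0.523) and 0.326-fold (0.239 to 0.438). The other cells were not the same groups on both days, as the unnamed cluster 2 had 1013 cells at D14 and 1 at D21. At D14 cluster 2 held 141 of the 214 CACNA1D UMIs of the other cells, 152 of the 254 of KCNJ5 and 556 of the 913 of CACNA1G. The part of cluster 2 in these differences and in the CACNA1G ratios was not tested. The other cells of D21 include clusters 7 and 16, which held TNNT2 at 4626 and 4565 CPM. These clusters held 22 and 18 of the 55 KCNJ5 UMIs of the other cells. They held 29 and 32 of the 104 of HCN4, and 9 and 5 of the 55 of CACNA1D. Their part in the D21 levels and ratios of the other cells was not tested.

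KCNJ3 was the exception at D8, with 57 UMIs in the other cells against 1 in CM-like cells, and was called lower (1 of 8, beside 11.5% of all genes). Cluster 1, an unnamed group of 1061 cells led by TSHZ2, HAND1 and EBF2, held 43 of these UMIs, and 2 of its barcodes held 39, with 19 and 20 UMIs each. The second of these had 13 UMIs of TNNT2 and the other none, and neither had a UMI of KCNJ5. The remaining 4 UMIs of cluster 1 were in 4 cells. Without the 2 barcodes KCNJ3 no longer had 20 UMIs in the 2 sums, and no call was made. From D8 to D14 the other cells had 7 genes called higher (11.8% of all genes) and KCNJ3 called lower (4.84%), and without these barcodes the D8 level of KCNJ3 there was 0.463 CPM, beside 0.590 at D14. At D14 KCNJ3 was within 2-fold of the other cells, at 1.85-fold (0.902 to 3.72), and at D21 it was 4.30-fold (3.14 to 5.90) higher in CM-like cells.

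**Figure D2:**
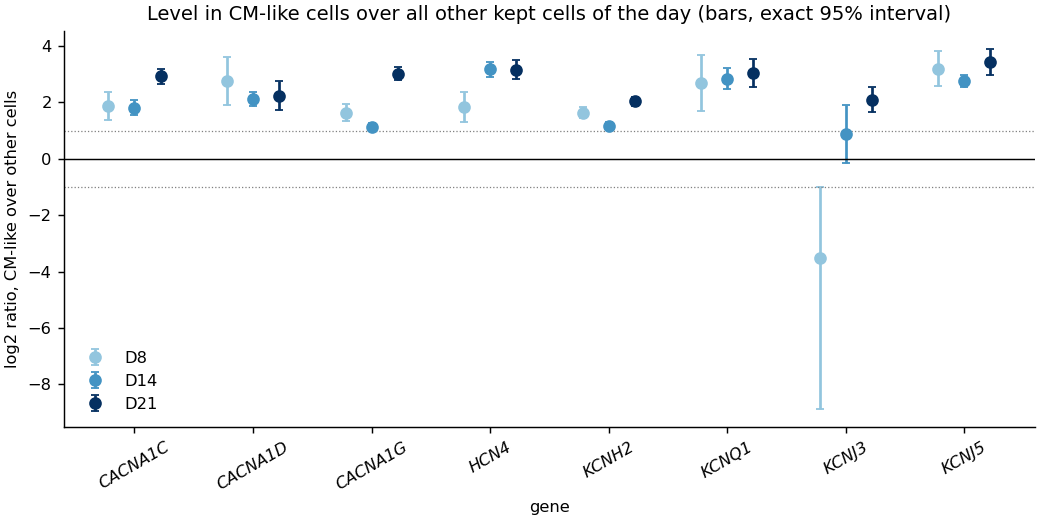
Log2 ratio of the level in CM-like cells over all other kept cells of the same day (vertical axis) for each gene (horizontal axis), from light to dark blue for D8, D14 and D21, with exact intervals of 95% and dotted lines at 2-fold. All points except KCNJ3 at D8 and D14 lie above the upper dotted line, and the D8 point of KCNJ3 has an interval that spans most of the lower panel because CM-like cells held 1 UMI.

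Channel genes outside CM-like cells were set beside TNNT2, a sarcomere gene, as a measure of CM-like RNA. If every TNNT2 UMI of a cluster came from CM-like cells of the same library, the cluster would hold the channel genes in the ratio to TNNT2 seen in CM-like cells. Cluster 2 of D14, 1013 unnamed cells led by MFAP4, CTNNA2 and GAS1, with ISL1 at 205 CPM and TNNT2 at 158 CPM, held 556 UMIs of CACNA1G where that ratio gives 34.4. It held 511 of KCNH2 (41.3 at the ratio), 152 of KCNJ5 (29.8), 141 of CACNA1D (15.99), 88 of CACNA1C (12.6) and 75 of HCN4 (22.7). Its CACNA1G level, 49.2 CPM (45.2 to 53.5), was close to the 56.4 CPM (52.6 to 60.4) of the CM-like cluster 0, whereas its HCN4 level, 6.64 CPM, was far from 37.1. KCNH2 was also above the ratio in the cardiac fibroblast-like cells, with 205 UMIs in cluster 4 at D14 (11.9 at the ratio) and 295 in cluster 3 at D21 (59.3). So were CACNA1G, with 99 (9.89) and 92 (51.9), and CACNA1C, with 43 (3.64) and 70 (37.4) in the same clusters. CACNA1D had 15 (4.60) and 24 (6.89), KCNQ1 7 (2.81) and 21 (11.2), and KCNJ3 0 (0.192) and 26 (8.35). HCN4 and KCNJ5 were nearer to the ratio in the fibroblast-like cells. At D14 cluster 4 held 3 and 16 UMIs (6.53 and 8.57 at the ratio), and at D21 cluster 3 held 28 and 9 (24.6 and 15.8).

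The hepatic endoderm-like cells of D21 held 14 UMIs of HCN4 (10.3 at the ratio), 41 of KCNH2 (24.8), 16 of CACNA1G (21.7) and 9 of CACNA1C (15.6). They also held 19 of KCNJ3 where the ratio gives 3.49 and 13 of CACNA1D where it gives 2.88. The KCNJ3 level of these cells, 2.53 CPM, was near that of the fibroblast-like cells, 2.33 CPM. Endothelial-like cells, 39 to 54 per day, held 10 UMIs of CACNA1C at D21, which is 16.4 CPM (7.88 to 30.2), and 0 UMIs of CACNA1D and KCNJ3 on all days. A count of 0 in the 39 cells of D21 allows up to 4.93 CPM.

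**Figure D3:**
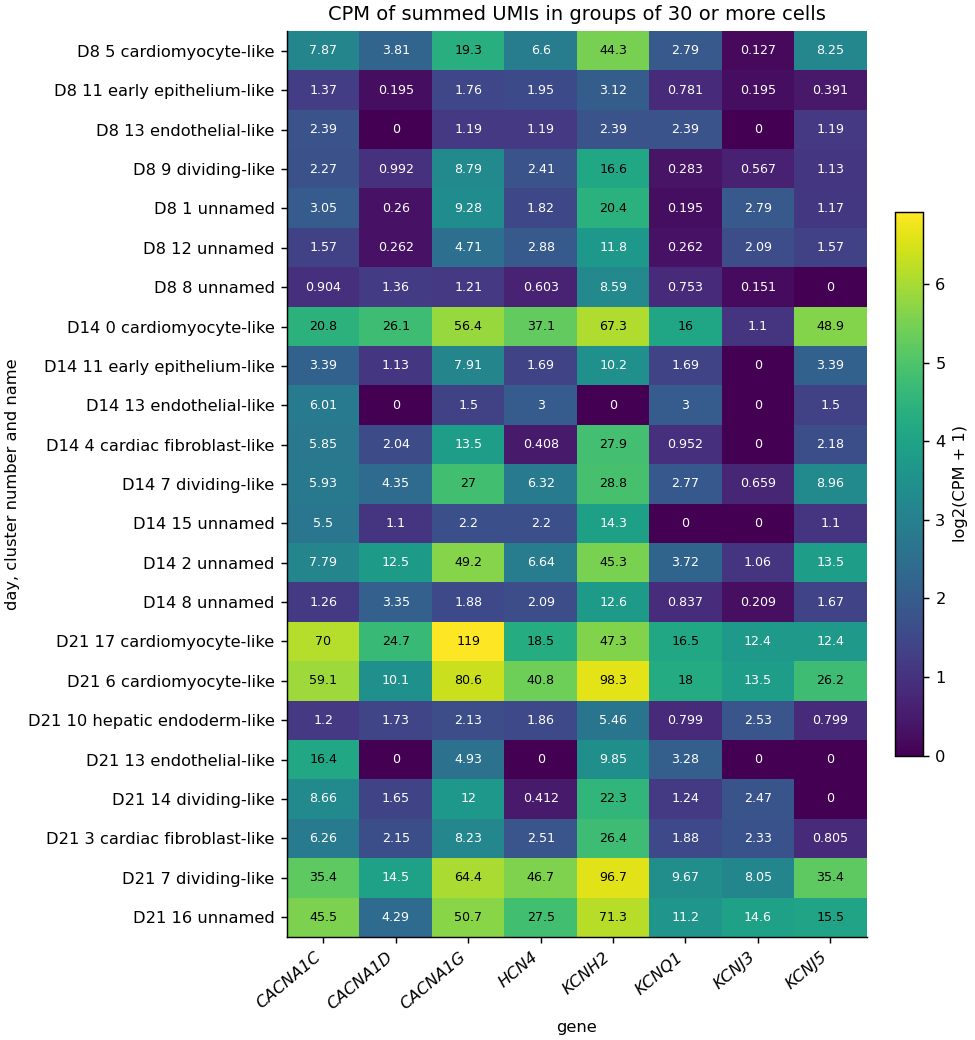
Level of the 8 genes (columns) in the 23 groups of a day and a cluster with 30 or more cells (rows, with the class name where a cluster earned one), as colour on a log2(CPM + 1) scale with the CPM printed in each field. For HCN4 the CM-like rows of D14 and D21 and clusters 7 and 16 of D21 are the brightest, between 18.5 and 46.7 CPM, and the CM-like row of D8 and cluster 2 of D14 are both near 6.6 CPM. Cluster 2 of D14 is above the CM-like row of D8 for CACNA1G, at 49.2 against 19.3 CPM.

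Within D21, 36 cells of the dividing cluster 7 held 4626 CPM of TNNT2 and had 46.7 CPM of HCN4 (31.3 to 67.1), 35.4 of KCNJ5 and 96.7 of KCNH2, beside 40.8, 26.2 and 98.3 in the CM-like cluster 6. The dividing cluster 14, with TNNT2 at 393 CPM, had 0.412 CPM of HCN4 from 1 UMI and no KCNJ5. Cluster 16, 59 unnamed cells led by CXCL14 and MYL2, held 27.5 CPM of HCN4, 45.5 of CACNA1C and 14.6 of KCNJ3. Its median doublet score, 0.214, was the highest of all clusters, and its cells were deep, at a median of 19298 UMIs. The small CM-like cluster 17, with 50 cells at a median of 8172 UMIs, differed from cluster 6. It had 119 CPM of CACNA1G (90.7 to 154) against 80.6 (73.9 to 87.6), and 18.5 CPM of HCN4 (8.47 to 35.2) against 40.8 (36.1 to 45.9). KCNH2 was 47.3 CPM (30.01 to 71.0) in cluster 17 and 98.3 (91.0 to 106) in cluster 6, and CACNA1D was 24.7 CPM (12.8 to 43.1) and 10.1 (7.81 to 12.7). Cluster 17 also held the liver gene AFP at 5366 CPM beside TNNT2 at 7663 CPM, and its median doublet score was 0.0373. Doublet calling did not work in these data, so the scores cannot tell whether barcodes of cluster 16 or 17 held more than 1 cell. Leaving cluster 17 out changed no call of the CM-like cells.

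The CM-like cells of D21 had a median of 8.46% mitochondrial UMIs in cluster 6, against 5.16% in cluster 0 at D14 and 2.85% in cluster 5 at D8, and the limit of 10% removed 1982 barcodes of D21 that passed the gene limits, against 11 at D8 and 204 at D14. With the limit raised to 20% and the cells clustered anew, 1640 CM-like cells were kept at D21, and CACNA1C, here in CPM of nuclear-genome UMIs, was 69.6 CPM (62.7 to 77.1) in the 417 cells with 5% to 10% mitochondrial UMIs, 82.8 (76.8 to 89.1) in the 742 with 10% to 15% and 101 (92.5 to 111) in the 455 with 15% to 20%. HCN4 was 44.5, 60.8 and 62.7 CPM and KCNH2 was 107, 138 and 144 CPM over the same cells. The intervals overlapped for KCNJ5, at 29.1, 31.7 and 30.1 CPM, and for CACNA1D, at 10.7, 12.8 and 12.5 CPM. Only 26 cells had under 5%, and their 4 UMIs of CACNA1C give 13.0 CPM with an interval of 3.53 to 33.2. When only CM-like cells with 5% to 10% were compared on all days, the calls from D14 to D21 were the same except that KCNJ5 joined CACNA1D below 2-fold. Over all CM-like cells, with no lower limit on the mitochondrial share, the summed level of the 12 CM markers was 10716, 28307 and 64769.5 CPM on the 3 days, and that of 8 hepatic endoderm markers was 28.5, 122 and 2274 CPM, with 1, 0 and 0 of the latter at 0. The hepatic sum at D21 was 1154 CPM in cluster 6 and 17726.5 CPM in the 50 cells of cluster 17. The part of these sums and of the mitochondrial share in the differences between days was not tested.

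**Figure D4:**
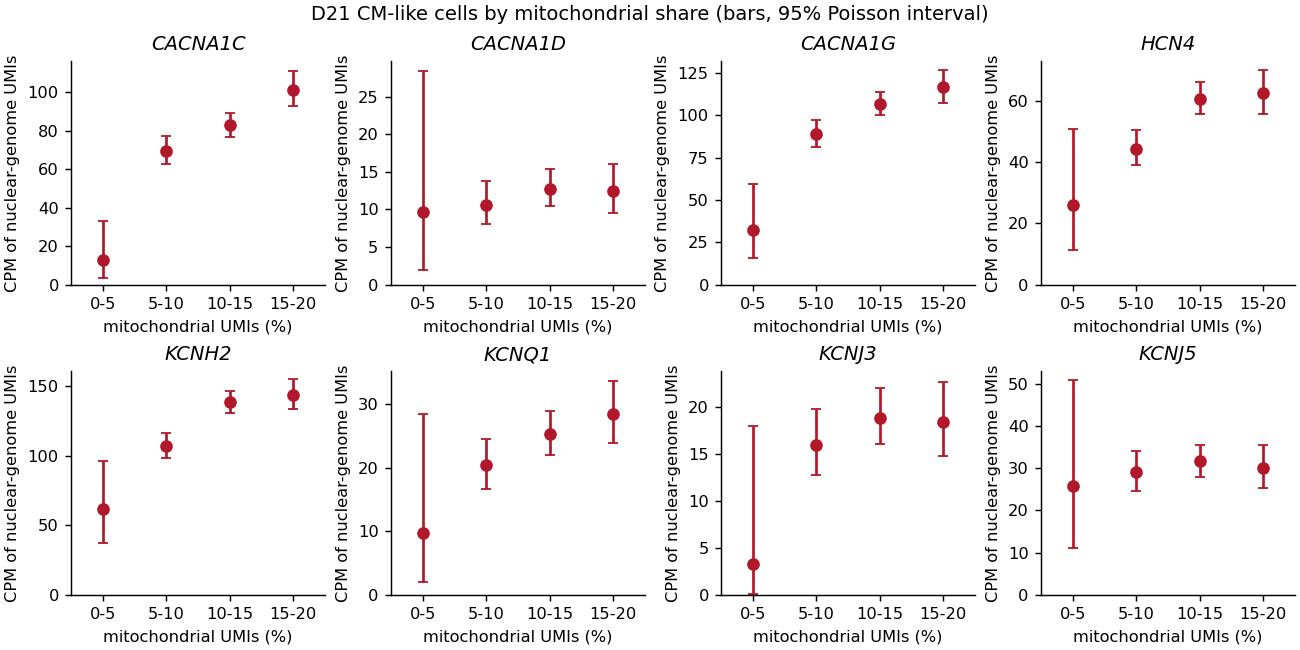
Level of each gene in D21 CM-like cells in CPM of nuclear-genome UMIs (vertical axis, from 0) by the mitochondrial share of the cell (horizontal axis, in bins of percent), with Poisson intervals of 95%. CACNA1C climbs from 69.6 to 101 CPM over the bins from 5% to 20%, and KCNJ5 stays between 29.1 and 31.7 CPM.

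The partners KCNJ3 and KCNJ5 were found together in 24 of 541 CM-like cells at D21 before thinning (4.44%, 2.86 to 6.53), where the product of their shares is 3.55%. A KCNJ5 UMI was in 31.2% of the cells with KCNJ3 and 23.9% of those without. HCN4 and CACNA1G, both pacemaker genes of the node, were together in 15, 184 and 131 cells at D8, D14 and D21, or 3.09%, 16.6% and 24.2%, beside products of 2.22%, 16.3% and 23.7%. KCNQ1 and its partner KCNE1, which slows the channel, met in 14 cells at D14 (1.26%) and 3 at D21 (0.555%), with products of 1.23% and 0.379%. In these sparse counts the interval of each shared share held the product.

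Across the 23 groups of a day and a cluster with at least 30 cells, the gene whose level on the log2(CPM + 1) scale was most like that of HCN4, among 9630 genes that reached 20 CPM in a group, was KCNJ5 (Pearson's r = 0.935), and the gene most like KCNJ5 was HCN4. JPH2, which couples the surface membrane to calcium stores, came next for HCN4 (0.926). CACNA1C was nearest to SLC25A12 (0.943), TRDN, a protein of the calcium release complex (0.928), and MSRB3 (0.927), and CACNA1G to BMP5 (0.948), PTGES2 (0.934) and SEPW1 (0.9299). CACNA1D was nearest to PHYHIPL (0.897), TMEM38A (0.896) and INPPL1 (0.895), KCNH2 to SLC4A3 (0.904), IFT88 (0.903) and LMOD1 (0.897), and KCNQ1 to A4GALT (0.938), SLC25A4 (0.9302) and MYH7B (0.916). KCNJ3 was nearest to RP11-532N4.2 (0.892), S100A8 (0.890) and SLC27A6 (0.889), and ranks 3 for HCN4 and 2 and 3 for KCNJ5 went to RP11-480G7.1 (0.921), EMILIN2 (0.919) and RBM38 (0.917). Between partners, KCNJ3 and KCNJ5 had an r of only 0.539. The groups of a day share a library and its depth, so these values describe the groups and carry no test.

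The promoter windows of HCN4 and KCNJ5 are printed because the levels of the 2 genes were the most alike, and that of KCNJ3 because it is the partner that came late. The windows run from 250 bases before to 50 bases after a RefSeq transcription start on build GRCh38.p14, at chr15:73368909-73369208 (minus strand), chr11:128891106-128891405 (plus strand) and chr2:154698445-154698744 (plus strand), and capitals mark every match on either strand to the GC box GGGCGG, the NKX core AAGTG, the GATA motif AGATAA, the MEF2 motif (CTA and TAG with 4 bases of any kind between them) or the E-box CANCTG.
HCN4: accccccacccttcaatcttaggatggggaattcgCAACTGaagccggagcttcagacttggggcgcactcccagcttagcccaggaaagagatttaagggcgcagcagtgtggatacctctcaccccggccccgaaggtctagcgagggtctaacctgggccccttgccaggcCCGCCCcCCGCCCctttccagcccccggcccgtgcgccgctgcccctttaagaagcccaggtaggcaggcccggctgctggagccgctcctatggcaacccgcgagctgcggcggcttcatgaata
KCNJ5: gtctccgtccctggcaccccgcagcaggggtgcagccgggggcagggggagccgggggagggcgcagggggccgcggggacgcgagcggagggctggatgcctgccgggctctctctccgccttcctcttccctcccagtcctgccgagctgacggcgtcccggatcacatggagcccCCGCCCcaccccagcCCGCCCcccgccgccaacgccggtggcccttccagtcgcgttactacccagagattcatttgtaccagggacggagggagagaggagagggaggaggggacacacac
KCNJ3: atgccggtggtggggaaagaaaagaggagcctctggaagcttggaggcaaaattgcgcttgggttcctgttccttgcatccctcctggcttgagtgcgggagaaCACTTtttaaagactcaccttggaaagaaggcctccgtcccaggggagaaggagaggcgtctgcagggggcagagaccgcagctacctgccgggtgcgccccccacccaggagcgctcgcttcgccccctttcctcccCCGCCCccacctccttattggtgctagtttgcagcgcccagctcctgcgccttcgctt
HCN4 and KCNJ5 each hold a pair of GC boxes read on the opposite strand (CCGCCC) in the last 80 bases before the start, and KCNJ3 holds 1, at base -8. A GC box is in 45.0% of all 35116 RefSeq windows. HCN4 also holds an E-box (in 49.9% of windows), and KCNJ3 an NKX core (43.1%). No window of the 6 genes found in the RefSeq table, CACNA1C, CACNA1D, HCN4, KCNH2, KCNJ3 and KCNJ5, has the GATA motif (10.3% of windows) or the MEF2 motif (2.73%). The HCN4 and KCNJ5 windows are 65.0% and 72.7% G and C, beside a median of 58.7% over all windows and 82.3% and 83.0% for CACNA1C and CACNA1D. These matches describe letters only.

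From D14 to D21 most of the other calcium channel subunits were lower in CM-like cells. Of 10 with enough UMIs 7 were called lower and 2 higher, beside 21.1% and 6.02% of all genes. The 2 that were higher, CACNB2 and CACNB1, are beta subunits, which bring L-type pores to the membrane, but another beta subunit, CACNB3, was called lower, at 12.3 CPM at D14 and 3.97 at D21. CACNB2 was 8.50, 19.4 and 46.4 CPM, 2.398-fold (2.04 to 2.82) over the last step, beside 2.88-fold for CACNA1C, and CACNB1 was 5.73 and 14.4 CPM at D14 and D21. CACNA2D1, the alpha2delta subunit of the same complex, was 3.43, 8.59 and 14.8 CPM, a last step of 1.72-fold (1.32 to 2.24).

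Most genes of the potassium channel lists were lower at D21, in a step in which 21.1% of all genes were called lower and 6.02% higher. Both tested KCNE partners of KCNQ1 and KCNH2 were called lower, KCNE1 at 1.65, 5.86 and 1.37 CPM and KCNE2 at 0.888, 1.30 and 0.137 CPM, while AKAP9, the scaffold of KCNQ1, was within 2-fold at 159, 157 and 105 CPM. Of 7 other voltage-gated potassium channel genes 6 were lower and 1, KCNH7, was higher, at 3.70 CPM at D21. KCNIP2, the subunit of the transient outward current, went from 30.5 CPM at D14 to 1.51 at D21, and KCNAB2 was 2.05 CPM at D21. KCNA5, an atrial channel named after its values were seen, went from 9.95 to 0.137 CPM. Of 4 other inward rectifier genes 2 were lower, KCNJ12 at 5.07 CPM and KCNJ8 at 5.48 CPM at D21, and KCNJ2, the main pore of the resting potassium current of ventricle, had 3, 6 and 0 UMIs. A count of 0 allows up to 0.411 CPM at D21. Of 7 K2P and calcium-activated channel genes 6 were lower, with KCNN2 at 14.7 CPM and KCNK3 at 3.70 CPM at D21, from 31.4 and 27.6 at D14.

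Upstream of KCNJ3 and KCNJ5, the receptor CHRM2 was 14.1, 38.1 and 35.6 CPM, with a last ratio of 0.934 (0.803 to 1.08). The adenosine receptor ADORA1, which opens the same channel, was called higher at D21, at 3.204 and 7.40 CPM at D14 and D21. The G protein subunits GNB2 and GNB1 were within 2-fold, at 112 and 74.1 CPM at D21. Of the 7 tested genes of this list 5 were within 2-fold, 1 was called higher and 1 lower, beside 6.02% and 21.1% of all genes. RGS4, which shortens the G protein signal and was named after its values were seen, was 225, 125 and 9.18 CPM. The calcium cycling partners of the L-type pores were higher or within 2-fold, 2 and 3 of 5, where 6.02% of all genes were called higher. ATP2A2, the calcium pump, was 92.5, 247 and 797 CPM and SLC8A1, the sodium-calcium exchanger, 49.1, 166 and 424 CPM.

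**Figure D5:**
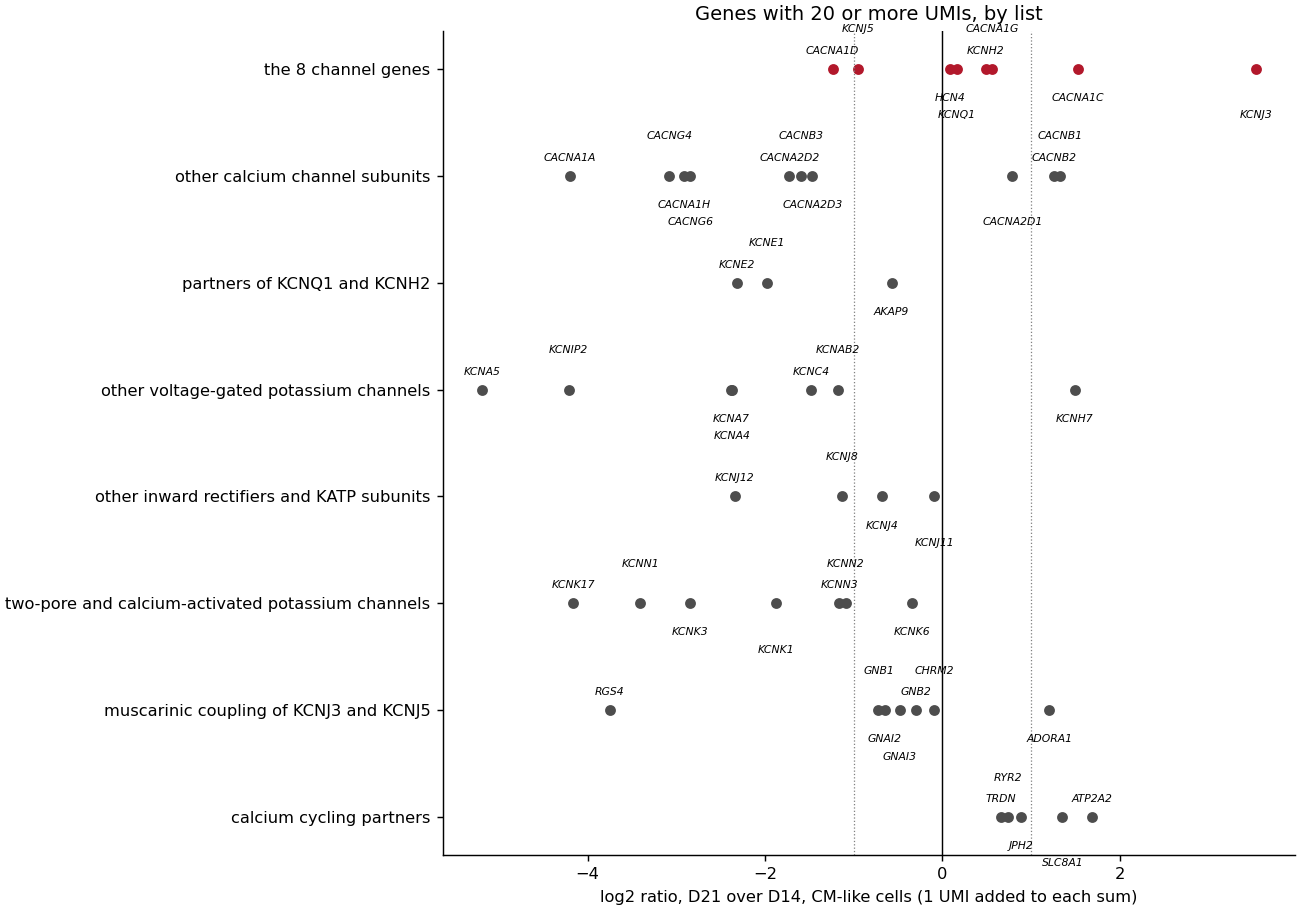
Log2 ratio of D21 over D14 in CM-like cells with 1 UMI added to each sum (horizontal axis) for the genes with 20 or more UMIs in each list shown (rows), with the 8 channel genes in red and dotted lines at 2-fold. KCNJ3 at 3.53 lies furthest to the right, other potassium channel genes are mostly left of the lower dotted line, and CACNB1 and CACNB2 lie near CACNA1C at 1.52.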

How the data were processed

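Dissociated CCOs of 1 library per day were profiled with the Chromium 3′ v2 kit. The authors deposited unfiltered UMI counts as 1 table of 17327 barcodes, whose entries are whole numbers. The submitters' processing notes name Cell Ranger, Seurat 3.2.1 and hg19. Whether counting used strand is not given in the sources used here. The day of a barcode came from the end of its column name.

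Following the methods of the study, a barcode was kept if it had over 2000 but less than 7500 genes, with the 13 mitochondrial genes below 10% of its UMIs, and genes needed a UMI in at least 10 barcodes. The kept D8, D14 and D21 libraries summed to 46767738, 50247286 and 30898727 counts. Seurat 5.3.0 in R 4.3.3 with Matrix 1.6.5 log-normalized counts to 10000 per cell, took 2000 variable genes, less the 10 channel genes of all lists among them, and clustered on 20 principal components at resolution 0.8 with no integration. A cluster was named when 3 markers of a class were 2-fold up over the other cells of the day with most of its cells (at least 20), with 10 CPM added, and led the next class by 2 markers. It stayed unnamed when its 10 leading genes spoke for another class or when its cells had a median depth below that of the day divided by 3 and no marker was among those genes. CPM are counts per 1000000 summed UMIs. Poisson, Clopper-Pearson and ratio intervals came from scipy 1.17.1, and a count of 0 was read as at most 3 counts. Ratios were tested on simulated Poisson counts, which hold no spread between cells or libraries and so cannot check for it. With 1 library per day no test and no p-value was computed. Scrublet in scanpy 1.11.5 marked 0.0376%, 0.0279% and 0.360% of D8, D14 and D21 cells as doublets and so has not worked here, and all cells were kept. Other work used Python 3.11.15, numpy 2.4.6, pandas 2.3.3, anndata 0.12.19 and matplotlib 3.10.9, with TMM from edgeR 4.0.16.

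The 8 genes, the lists and the tests were chosen with earlier results of these data known. Besides the 8, genes named are the 2 with the highest D21 level in each list, 8 partners fixed by name, the 3 genes nearest in pattern, and overlapping genes. All 4 atrial and all 4 nodal genes, and CACNB3, were named after their values were seen. CACNA1H, CACNB1 and ADORA1 were also named outside this rule. Some items that this rule would name, and 2 lists that hold them, are not reported here. Alternatives were other mitochondrial limits, resolutions and variable genes, a gate on CM genes, removal of cells with high doublet scores, other scalings, background subtraction and other call limits, and 4 that were chosen after seeing the data. No other experiment of the study was analysed here.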

Additional observations from a re-analysis of the deposited data

Results flagged for a closer look

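KCNJ3 was the one channel gene whose difference between CM-like and other cells changed sign with the day. Its log2 ratio, with 1 UMI added to each sum, was -2.56 at D8 and 2.10 at D21. The difference between the days was not tested, since each day is 1 library. The D8 value rests on 1 UMI in CM-like cells and on 57 in the other cells, of which 39 were in 2 barcodes.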

How the results depend on the processing

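Counts of channel genes called were recomputed under 20 other settings, 4 of them chosen after seeing the data, and 187 of 200 counts stayed within 1.5 times. From D14 to D21 in CM-like cells the count called higher, 2, was 1 with a mitochondrial limit of 5% (CACNA1C, with 36 cells left at D21 and KCNJ3 not tested), 1 with a gate on CM genes (KCNJ3) and 1 at 3-fold (KCNJ3). The count called lower, 1, was 0 with the limit of 5%, with median-of-ratios scaling and at 3-fold. It was 2, with KCNJ5 joining CACNA1D, at resolution 1.2, with the gate, with the mean of CPM per cell, at 1.5-fold and in cells with 5% to 10% mitochondrial UMIs. At D8 the count lower in CM-like cells, 1 (KCNJ3), was 0 with the gate, where the log2 ratio reversed to 0.77, and 0 without the 2 barcodes richest in KCNJ3. The gate took 792, 2230 and 1843 cells as CM-like, the last of 1946, and leaving out from the variable genes those the study names gave 941 at D8. Of the log2 ratios of single genes, 572 stayed within their counting interval, 107 moved beyond it and 1 reversed. Shares of cells moved in 46 of 48 cases without thinning or with 2 UMIs required. Over all genes the median log2 ratio from D14 to D21 shifted by 0.22 with TMM and 0.30 with median-of-ratios scaling, and the latter shifted that from D8 to D14 by -0.11. TMM shifted that of CM-like over other cells at D21 by -0.11. The cause of these changes was not tested. With 1 library per day no replicate could be left out. No paired analysis was possible because each day has 1 library and the labels give no replicate numbers.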

Other observations

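Barcodes that failed the filters also carried the channel genes. At D14, 204 barcodes over the mitochondrial limit had 72.7 CPM of KCNJ5, 40.1 CPM of HCN4 and 31.0 CPM of CACNA1D, beside 3035 CPM of TNNT2. The 820 barcodes of D14 with 2000 genes or fewer had 45.1 CPM of CACNA1G from 76 UMIs and 16.0165 CPM of HCN4 from 27 UMIs.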
